A study of Gallus gallus with 28 samples.

Results

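The vitamin uptake genes CUBN, LRP2, BCO1, SLC46A1, SLC19A3 and SLC23A1 were followed through hatch in the chick small intestine. They, and the gene lists set beside them, were chosen by name with earlier results of these data known. The probe annotation lists all 6 of them among 13009 genes with a symbol, on 19 of 27168 probe sets. Total RNA was measured on 28 Affymetrix chicken arrays, 4 at each of 7 ages: embryonic days 18 and 20 (e18 and e20), the day of hatch, and 1, 3, 7 and 14 days later (d1, d3, d7 and d14). All birds were male and the labels name no treatment, strain or feed. RNA at each age came from intestinal segments of 6 birds, and the tissue label reads whole intestine. The design text names 2 lines, A and B, and 2 pools but assigns neither to an array, so the share of each in a group is unknown, and the p-values reflect variation among arrays that may in part be technical. Values are log2 intensities, and each gene is represented by its brightest probe set unless stated otherwise.

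Most vitamins cross the brush border of the enterocyte by dedicated routes. Cubilin, encoded by CUBN, binds cobalamin carried by intrinsic factor and is held at the apical membrane by amnionless (AMN); megalin, encoded by LRP2, is a large endocytic receptor that works with cubilin in the kidney and yolk sac of mammals. SLC46A1 is the proton-coupled folate carrier, SLC19A3 a thiamine carrier and SLC23A1 a sodium-coupled ascorbate carrier. BCO1 is not a carrier but the cytosolic enzyme that cleaves beta-carotene to retinal inside the enterocyte. A chick near hatch changes from yolk to feed as its main source of nutrients.

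The 6 genes fell into several different courses. CUBN went from background to a high level between e18 and e20, had its highest mean at d1 and then dropped to a plateau. BCO1 rose through hatch and had its highest mean at d14, which was not called different from those at d1 and d7. SLC23A1 had its highest means at hatch and d1, whose arrays overlapped, and then fell. Its d14 level was not called different from that at e18, both being close to background. Among those of the 6 genes that passed a filter on low values, SLC46A1 changed least, with a small rise from e20 to hatch. SLC19A3 stayed close to background, and no probe set of LRP2 passed that filter. Background was set on each array at the 95th percentile of 541 probe sets with IDs beginning NC-, between 2.97 and 3.54.

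**Figure D1:**
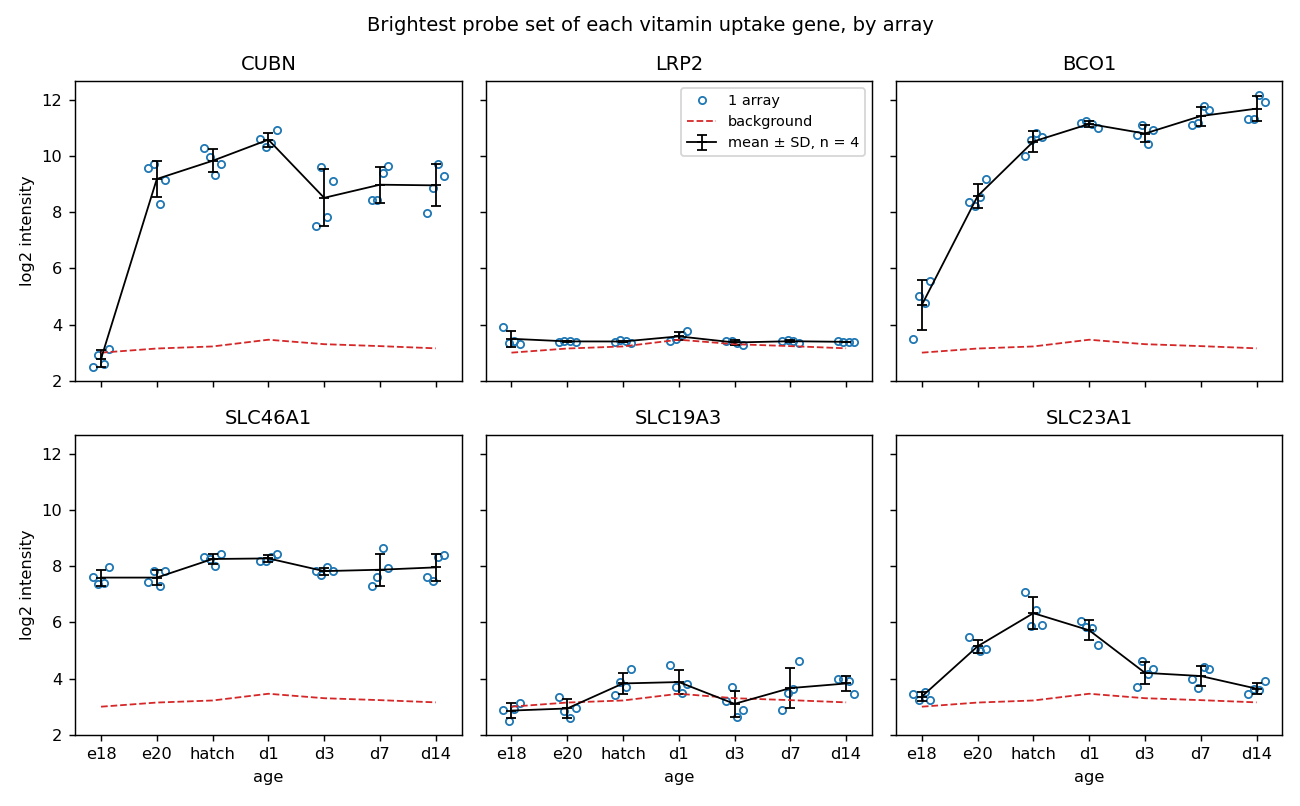
Log2 intensity of the brightest probe set of each gene (vertical axis) at 7 ages (horizontal axis). Circles are single arrays, black marks the mean ± SD of 4 arrays, and the red dashed line the mean background of each age. CUBN moved from 2.78 at e18, below background, to 9.18 at e20, BCO1 climbed to 11.69 at d14, SLC23A1 peaked at 6.33 at hatch, and LRP2 lay near the background line at every age.

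A gene was tested if its log2 value exceeded 4 on at least 4 arrays, a filter that 8396 of the 13009 genes passed. CUBN, BCO1, SLC46A1 and SLC23A1 passed, on 24, 27, 28 and 17 arrays. LRP2 and SLC19A3 did not, with 0 and 3 arrays over 4. CUBN and SLC23A1 passed through the ages at which they were high, so their count among called genes carries no weight. Limma's moderated F-test across the 7 ages called the 4 tested genes, against 90.1% of all genes tested. Its adjusted p was 1.99e-13 for CUBN, 1.31e-15 for BCO1, 3.60e-11 for SLC23A1 and 0.0263 for SLC46A1. The range between the highest and lowest age mean was 6.99 for BCO1, 2.97 for SLC23A1 and 0.68 for SLC46A1. The ranges of BCO1 and SLC46A1 were as large as or larger than those of 99.5% and 26.9% of the genes tested. No such share is given for SLC23A1, which passed the filter through its high ages. For CUBN no range is given, since its lowest mean was below background.

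CUBN (gene ID 420523), the cobalamin receptor, had arrays at 2.48, 2.92, 2.59 and 3.14 at e18, where 1 of 4 was above background. At e20 they read 9.57, 9.70, 8.30 and 9.14, at hatch 10.30, 9.98, 9.34 and 9.70 and at d1 10.62, 10.31, 10.47 and 10.91. The e18 arrays lay far below all others and those of e20 and hatch overlapped. Every d1 array was above every hatch array, but only just, with a lowest d1 array of 10.31 and a highest hatch array of 10.30. The change from hatch to d1, 0.75 ± 0.41 (SE), was not called (limma adjusted p = 0.165). At d3 the arrays spread widely, at 7.51, 9.60, 7.81 and 9.12. At d7 they read 8.44, 8.42, 9.39 and 9.66 and at d14 7.96, 8.85, 9.72 and 9.28. The arrays of d3, d7 and d14 overlapped each other and those of e20, and all lay below the d1 arrays.

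CUBN was at least 70.6-fold higher at e20 than at e18 (limma adjusted p = 4.17e-12), a bound because the e18 mean was below background. At d14 it was still at least 60.3-fold above e18 (adjusted p = 1.29e-12). From d1 to d3 it fell by 2.07 (SE 0.41, adjusted p = 6.28e-04), a 4.2-fold drop. The d14 level differed from that at e20 by −0.23 ± 0.41 (SE) and was not called (95% interval −1.08 to 0.63, adjusted p = 0.645). Ordered by mean, the ages ran e18, d3, d14, d7, e20, hatch and d1. Of neighbours in that order, e18 and d3 were called different, and no other neighbouring pair was. In all 11 of the 21 pairs of ages were called.

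The CUBN result rests on 1 of its 4 probe sets. The other 3 read between 2.20 and 3.90 on all arrays, and none passed the filter, so nothing about the gene's other regions can be read from them. The e18 arrays differed from the rest of the series in their marker levels as well. The 11 exocrine pancreas markers on the array summed to an intensity of 56713 to 72047 per e18 array and 179 to 702 per e20 array, where CPA1, CPB1, CEL, CELA1, CUZD1 and SYCN were at background. At e18 only CELA1 and CUZD1 of this list were at background. Of the 13 enterocyte markers 12 were higher and 1, CDHR5, lower at e20 than at e18, with list means of 7.80 to 8.24 at e18, 10.16 to 10.77 at e20 and 12.45 to 12.55 at d14. On 3 of the 4 e20 arrays 1 of these markers was below background. Other lists took different courses in the same step. The goblet cell list had a mean of 5.67 at e18 and 6.99 at e20, and the smooth muscle list 12.84 and 12.91. The 9 macrophage and heterophil markers on the array had list means of 7.20 to 7.88 at e18 and 4.48 to 5.15 at e20. Of these 6 were called lower and 0 higher, against 54.2% of all genes called and 29.2% higher. The 6 erythroid markers summed to 12726 to 16242 at e18 and 1322 to 2040 at e20, and the 10 fibroblast and matrix markers had list means of 11.50 to 11.85 and 10.71 to 11.09. The part of any of these lists in the changes from e18 to e20 was not tested. In bulk tissue fewer cells of a type and less RNA per cell cannot be told apart.

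LRP2 (gene ID 424168) had 9 probe sets, and no value of any of them exceeded 3.92. Its brightest probe set read between 3.26 and 3.92 over the 28 arrays, with age means from 3.36 at d3 to 3.58 at d1. Of the 9 probe sets 2 lay just above the background line on every array and the other 7 were below it on every array. With no filter on low values, limma's F-test gave LRP2 an adjusted p of 0.239, and the change from e18 to e20 was −0.09 ± 0.09. The LRP2 signal thus stayed low at the ages at which CUBN was high. Whether its probe sets respond poorly or the transcript was absent cannot be told from these values. The 7 kidney markers on the array, had list means between 2.83 and 3.07 on all arrays, with UMOD, PAX2, SLC12A1 and AQP2 at background at every age. Of 14 liver and yolk sac markers APOH, AHSG and FGA were at background at every age and ALB at e20, hatch, d1 and d14, with list means of 5.28 to 5.68 at e18 and 5.14 to 5.32 at e20. The summed intensity of this list went from 6693 to 11232 per e18 array to 19321 to 23320 per e20 array, and its brightest member was APOA1, an apolipoprotein that the chick intestine also makes, with means of 12.49 and 14.26.

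**Figure D2:**
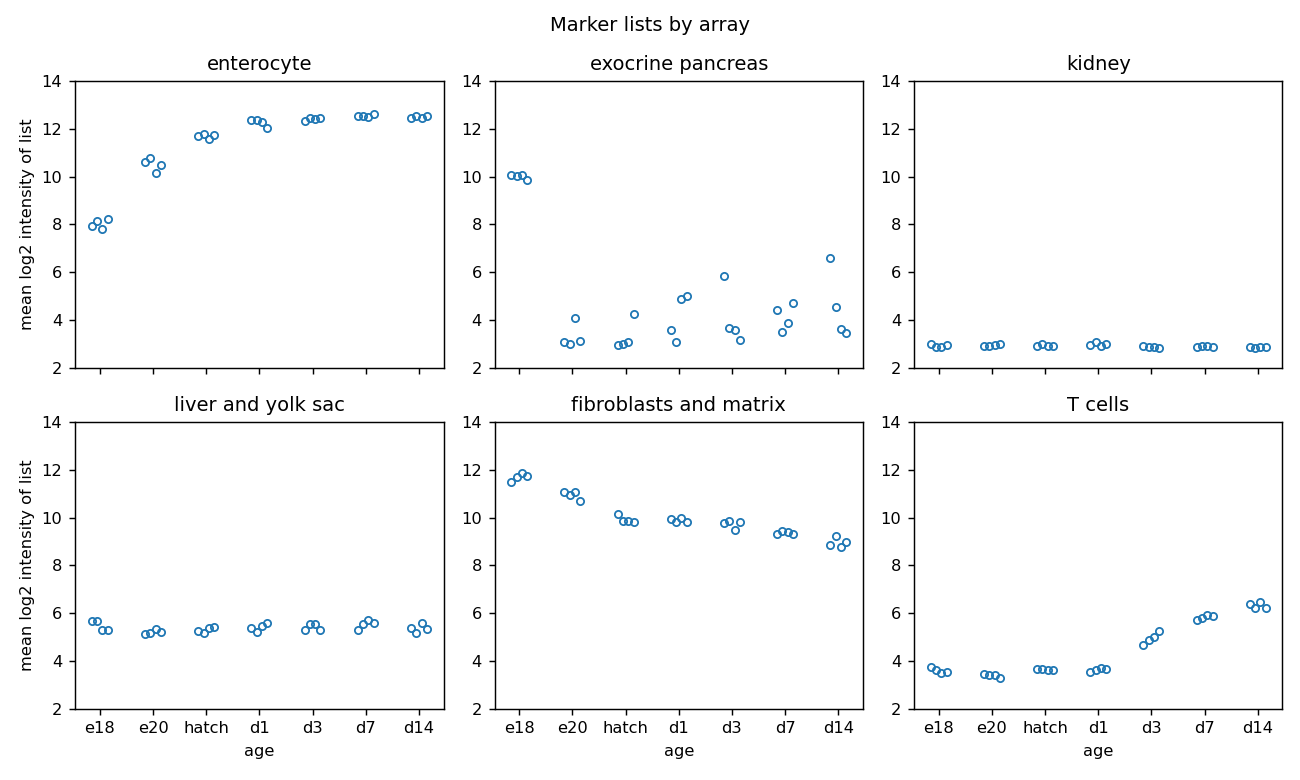
Mean log2 intensity of 6 marker lists (vertical axis) on each of the 28 arrays by age (horizontal axis), 1 circle per array. The exocrine pancreas list stood near 10 on every e18 array and below 7 on all others, the enterocyte list rose through hatch, and the kidney list stayed near background.

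AMN, which anchors cubilin and brings it to the surface, had arrays at 7.09, 7.19, 6.43 and 6.83 at e18 and 8.14, 8.06, 7.85 and 7.85 at e20, and means of 10.04 ± 0.09 at d1 and 9.70 ± 0.11 at d14 (SD, n = 4). All e18 arrays were below all e20 arrays, and unlike CUBN its mRNA was well above background at e18. It rose by 1.09 ± 0.14 (SE, adjusted p = 5.72e-07) to e20 and by 1.72 ± 0.14 from e20 to d14 (adjusted p = 1.45e-10). From d1 to d14 the change of CUBN minus that of AMN was −1.29, and an exact two-sided permutation test of the within-array difference gave an adjusted p of 0.0381. This test was run on 24 combinations of a gene pair and an age span. Its smallest possible raw p was 0.0286 with 4 arrays against 4. An adjusted p under 0.05 was reached by 18 combinations, all at that smallest raw p. In 9 of them both genes had passed the filter. Unrelated gene pairs were not tested in this way, so the count shows nothing particular to related genes. Combinations that use CUBN at e18, or a gene that did not pass the filter, rest on values at or near background.

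TCN2, the transcobalamin that carries the vitamin in blood, was also highest at d1. Its means were 4.51 ± 0.34 at e18, 6.66 ± 0.19 at e20, 7.65 ± 0.13 at d1 and 6.74 ± 0.38 at d14, and it was called higher at e20 than at e18 (2.15 ± 0.19, adjusted p = 1.41e-09) and lower at d3 than at d1 (−1.05 ± 0.19, adjusted p = 2.54e-04). CLCN5, an endosomal chloride-proton exchanger that receptor endocytosis needs in the mammalian kidney, rose by 2.23 ± 0.11 from e18 to d14. LMBRD1, which takes part in the exit of cobalamin from lysosomes, rose by 0.94 ± 0.12. CD320, the cellular receptor for transcobalamin, changed by −1.45 ± 0.45 (adjusted p = 0.00544). DAB2, an endocytic adaptor that binds the tails of megalin and amnionless, was called by the F-test (adjusted p = 0.0045), with its highest mean, 6.04, at hatch and its lowest, 4.19, at d14, but its change from e20 to d14 was not called (adjusted p = 0.0531). Of the 20 cobalamin and endocytosis genes listed beside the members, 13 were tested, of which 8 were higher and 3 lower at d14 than at e18, and 5 higher and 2 lower than at e20. Over all genes 33.2% were higher and 40.5% lower from e18, and 27.2% and 40.4% from e20. The median change of these 13 was 0.46 from e18 and 0.18 from e20, against −0.07 and −0.13 over all genes tested.

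SLC46A1 (gene ID 417569), the folate carrier, changed least of the tested members. Its arrays read 7.62, 7.37, 7.41 and 7.98 at e18, 7.44, 7.82, 7.29 and 7.82 at e20 and 8.32, 8.25, 8.00 and 8.45 at hatch. At d1 they read 8.20, 8.17, 8.31 and 8.43, and at d3 7.82, 7.67, 7.99 and 7.82. Every hatch and d1 array stood above every e20 array, and the highest d3 array was below the lowest d1 array. The change from d1 to d3, −0.45 ± 0.23 (SE), was not called (limma adjusted p = 0.148). At d7 and d14 the arrays parted, reading 7.30, 7.63, 8.64 and 7.92 and 7.62, 7.46, 8.34 and 8.41, so that these ages overlapped all others.

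From e20 to hatch SLC46A1 rose by 0.66 ± 0.23 (SE, limma adjusted p = 0.02). That call was lost without e20 array 1 (0.61, adjusted p = 0.0525), e20 array 3 (0.56, adjusted p = 0.0707) or hatch array 4 (0.60, adjusted p = 0.0600), and the F-test call without hatch array 4 (adjusted p = 0.0515), d1 array 4 (adjusted p = 0.0527) or the e18 arrays (adjusted p = 0.0625). From e18 to d14 the change was 0.36 ± 0.23, with a 95% interval of −0.10 to 0.83, and was not called (adjusted p = 0.149). Without d14 array 2 it was 0.53 (adjusted p = 0.0433), and the change from e20 to d14 became 0.53 (adjusted p = 0.0475). The order of means was e18, e20, d3, d7, d14, hatch and d1. No 2 neighbours in it were called different, and 4 of the 21 pairs of ages were. Its dimmer probe set, with values from 4.70 to 7.08, also had its lowest mean at e18 and its highest at d1. It was not called by the F-test (adjusted p = 0.0734 among all probe sets). Nor was its change from e20 to hatch, 0.54 ± 0.37 (limma adjusted p = 0.248).

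The other folate genes moved in both directions. SLC19A1, the reduced folate carrier, rose by 1.74 ± 0.14 from e18 to e20 (adjusted p = 3.16e-10), held 10.04 at hatch and 10.08 at d1, and changed by −1.60 ± 0.14 from e20 to d14 (adjusted p = 5.67e-10). The changes of SLC46A1 and SLC19A1 differed by −1.74 from e18 to e20 and by 1.96 from e20 to d14 (SLC46A1 minus SLC19A1, exact permutation test, adjusted p = 0.0381 for each). FOLH1, a brush border hydrolase that trims dietary folate to the form that carriers take up, had means of 6.14 ± 0.18 at e18, 8.25 ± 0.06 at d1 and 6.67 ± 0.25 at d3, and fell by 1.58 from d1 to d3 (adjusted p = 1.18e-07). MTHFD1, an enzyme of one-carbon metabolism, changed by −2.19 ± 0.10 from e18 to d14. TYMS, which makes thymidylate for DNA synthesis, changed by −1.51 ± 0.26, and SLC25A32, the mitochondrial folate carrier, by −0.88 ± 0.12. Of 7 folate genes tested beside SLC46A1, 1 was higher and 4 lower at d14 than at e18, and 0 were higher and 6 lower than at e20 by the same limma fit, where 40.5% and 40.4% of all genes were lower.

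SLC19A3 (gene ID 424792), the thiamine carrier, was close to background at most ages. Its arrays read 2.88, 2.51, 2.92 and 3.13 at e18 and 3.36, 2.83, 2.59 and 2.96 at e20, where 1 array of each age was above background. At hatch they read 3.40, 3.89, 3.69 and 4.32 and at d1 4.48, 3.71, 3.50 and 3.81, all above background. At d3 they read 3.19, 3.71, 2.63 and 2.87, at d7 they read 2.88, 3.48, 3.64 and 4.64 and at d14 3.98, 3.98, 3.90 and 3.44. The hatch, d1 and d14 arrays did not overlap those of e20, while d3 and d7 did. At hatch and d14 the gap was narrow, with lowest arrays of 3.40 and 3.44 against a highest e20 array of 3.36. Without the filter, limma gave an F-test adjusted p of 0.00517. It was at least 1.55-fold higher at hatch than at e20, where its mean was below background (adjusted p = 0.0279). GCRMA compresses values this low, so the true size of the change is not known. The order of means was e18, e20, d3, d7, d14, hatch and d1, and every neighbouring pair overlapped. Its second probe set stayed between 2.12 and 2.87, below background on all 28 arrays, and SLC19A2, the other thiamine carrier, had age means between 2.35 and 2.53.

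SLC23A1 (gene ID 416188), the ascorbate carrier, was high only around hatch among the ages sampled. Its arrays read 3.44, 3.25, 3.52 and 3.23 at e18, 5.49, 5.05, 4.99 and 5.06 at e20 and 7.09, 5.86, 6.46 and 5.90 at hatch. At d1 they read 6.04, 5.82, 5.80 and 5.21 and at d3 3.68, 4.63, 4.16 and 4.34. The 3 ages from e18 to hatch did not overlap, hatch and d1 did, and all d3 arrays were below all d1 arrays. At d7 the arrays read 3.98, 3.65, 4.40 and 4.32 and at d14 3.43, 3.64, 3.58 and 3.91. The d14 arrays overlapped those of e18, and the d7 arrays did not.

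SLC23A1 rose by 1.79 ± 0.23 from e18 to e20 (SE, limma adjusted p = 6.36e-07) and by 1.18 ± 0.23 to hatch (adjusted p = 2.83e-04). It then fell by 1.52 from d1 to d3 (adjusted p = 4.08e-05) and was 6.44-fold lower at d14 than at hatch (adjusted p = 1.25e-09). The ends of the series, e18 and d14, differed by 0.28 ± 0.23 and were not called (95% interval −0.20 to 0.76, adjusted p = 0.285). Both means were close to background, 3.36 against 3.00 at e18 and 3.64 against 3.15 at d14. Changes to or from these ages, the fold from hatch to d14 among them, may thus be understated. The order of means was e18, d14, d7, d3, e20, d1 and hatch. Neighbours from e18 to d3 were not called different, while d3 and e20, e20 and d1, and d1 and hatch were. The last of these calls, hatch against d1 (adjusted p = 0.045), did not hold without hatch array 1 (−0.36, adjusted p = 0.229) nor without 8 other arrays taken singly, with quantile normalization (adjusted p = 0.127) with no filter (adjusted p = 0.0592) or without the e18 arrays (adjusted p = 0.0581). In all 17 of 21 pairs of ages were called.

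SLC23A2, the other ascorbate carrier, was higher at d14 than at e20 (0.56 ± 0.18, limma adjusted p = 0.0101) and its change from d1 to d3, −0.43 ± 0.18, was not called (adjusted p = 0.0896). Its means were 7.14 ± 0.13 at e18, 8.52 ± 0.14 at hatch, 9.31 ± 0.26 at d1 and 9.01 ± 0.37 at d14. From e20 to d14 the change of SLC23A1 was below that of SLC23A2 by a difference of −2.07 (exact permutation test, adjusted p = 0.0381), whereas from e18 to e20 their changes differed by 0.48 (adjusted p = 0.0722). GLRX, a glutaredoxin that can reduce dehydroascorbate, rose by 3.86 ± 0.15 from e18 to d14. SLC2A1, which carries glucose and dehydroascorbate, changed by −1.37 ± 0.15. CYBRD1, an apical iron reductase that takes electrons from ascorbate, had its highest mean at d1, 9.75, and changed by −1.07 ± 0.29 to d3 (adjusted p = 0.00791). Of these 4 ascorbate genes tested beside SLC23A1, 3 were higher and 1 lower at d14 than at e18, against 33.2% and 40.5% of all genes.

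BCO1 (gene ID 395346), the carotene-cleaving enzyme, rose from e18 to hatch and stayed high. Its arrays read 3.47, 5.02, 4.75 and 5.54 at e18, 8.34, 8.22, 8.56 and 9.17 at e20 and 9.99, 10.58, 10.80 and 10.69 at hatch, with no overlap between these ages. At d1 they read 11.19, 11.24, 11.14 and 11.00 and at d3 10.74, 11.11, 10.41 and 10.94. At d7 they read 11.10, 11.17, 11.77 and 11.65 and at d14 11.33, 11.32, 12.18 and 11.91, and the highest arrays of the whole series were 3 and 4 of d14. The d14 arrays overlapped those of d7 and lay above those of all other ages. The gap to d1 was narrow, with a lowest d14 array of 11.32 and a highest d1 array of 11.24. The change from d1 to d14, 0.54 ± 0.31 (SE), was not called (limma adjusted p = 0.154).

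BCO1 was 127-fold higher at d14 than at e18 (6.99 ± 0.31, limma adjusted p = 4.95e-16) and 8.65-fold higher than at e20 (3.11 ± 0.31, adjusted p = 3.14e-09). The e18 arrays spread from 3.47 to 5.54, and the change from e18 to d14 ran from 6.58 to 7.27 with single arrays left out. The rise was 3.88 ± 0.31 from e18 to e20 and 1.94 ± 0.31 from e20 to hatch (adjusted p = 1.99e-10 and 2.28e-05). The next step, hatch to d1, was 0.63 ± 0.31 and was not called (adjusted p = 0.118), but had an adjusted p of 0.0399 with array weights, 0.0368 without the e18 arrays and 0.0400 without e18 array 1 alone, which at 3.47 was the lowest BCO1 value. The order of means was e18, e20, hatch, d3, d1, d7 and d14. The first 2 neighbouring pairs were called different and the other 4 were not, and 14 of 21 pairs were called in all. BCO1 has 1 probe set.

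Genes around BCO1 in carotenoid and retinoid handling formed several courses. SCARB1, a receptor that also takes up carotenoids, rose from 4.17 ± 0.37 at e18 to 10.84 ± 0.88 at d14, and RBP2, the retinol-binding protein of enterocytes, from 9.24 ± 0.73 to 14.92 ± 0.05, reaching 14.89 by hatch. RBP7, another cellular retinol-binding protein, was near background through hatch and rose by 5.52 ± 0.39 from e20 to d14 (adjusted p = 8.53e-12). ALDH1A1, which oxidises retinal to retinoic acid, was highest at hatch, at 14.03 ± 0.27, and fell by 2.46 from d1 to d3 (adjusted p = 1.99e-07). ISX, an intestinal homeobox factor that represses BCO1 and SCARB1 in mice, read 6.10, 6.30, 5.88 and 6.87 at e20 and 7.23, 7.52, 7.57 and 8.05 at hatch, and changed by 0.33 ± 0.26 from e18 to d14 (adjusted p = 0.252). Its mean was lowest at e20 and rose by 1.30 ± 0.26 to hatch (adjusted p = 2.59e-04). Whether ISX acts on BCO1 in the chick was not tested. BCO2, which cleaves carotenoids at another bond, had age means between 2.40 and 2.48, below background. TTR, the plasma carrier of thyroid hormone and retinol-binding protein, changed by −3.77 ± 0.82 from e18 to d14. TTR is also among the liver and yolk sac markers listed above, and whether other tissue contributed to its signal was not tested. Of 13 carotenoid and retinoid genes tested beside BCO1, 6 were higher and 6 lower at d14 than at e18, against 33.2% and 40.5% of all genes, with a median change of 0.33 against −0.07.

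**Figure D3:**
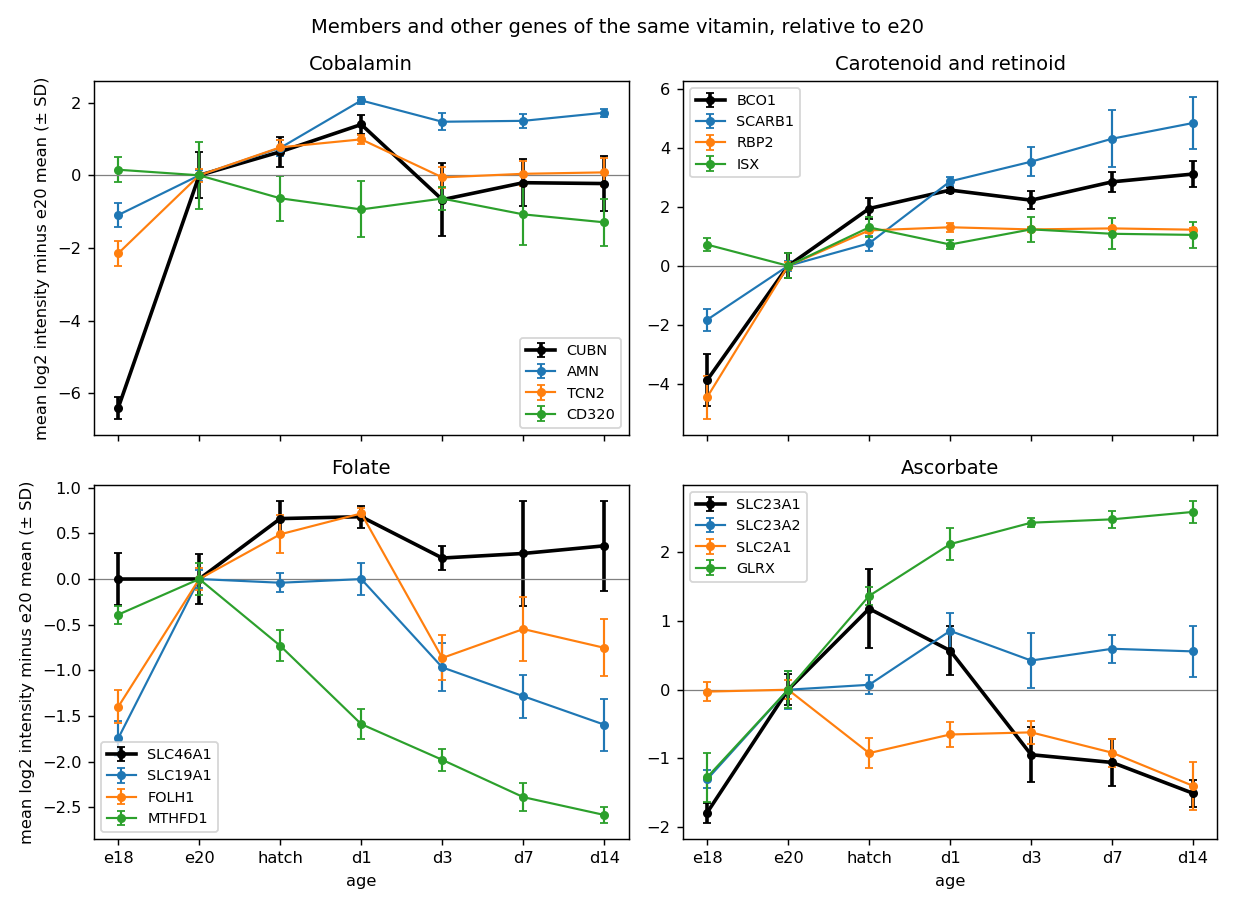
Mean log2 intensity minus the e20 mean (vertical axis, ± SD of 4 arrays) at 7 ages (horizontal axis) for each of 4 members, in black, and 3 other genes of the same vitamin. CUBN and TCN2 fell from d1 to d3, SLC23A1 was lower and SLC23A2 higher at d14 than at e20, SLC46A1 was flatter than SLC19A1, and BCO1 and SCARB1 were highest at d14. The e18 point of CUBN is below background.

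CUBN and SLC23A1 passed the filter through their high ages, so their calls carry no weight against the shares of all genes given here. From e18 to e20 CUBN, BCO1 and SLC23A1 rose, where 54.2% of all genes were called and 29.2% were higher. From e20 to hatch BCO1, SLC46A1 and SLC23A1 rose, where 43.3% of genes were called and 19.2% were higher. From hatch to d1 only SLC23A1 was called, as lower, against 35.2% of genes called and 22.7% lower. From d1 to d3 CUBN and SLC23A1 fell, where 25.7% of genes were called and 10.7% were lower. From d3 to d7 and from d7 to d14 limma called 0 of the 4 tested members, against 13.5% and 0.858% of genes called. In both steps 0 of them had an unadjusted p under 0.05. The share of all genes called fell along the same steps, so nothing particular to the members is read from when their calls were made. Neighbouring steps share arrays, so a high value at an age enters both the rise before it and the fall after it.

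**Figure D4:**
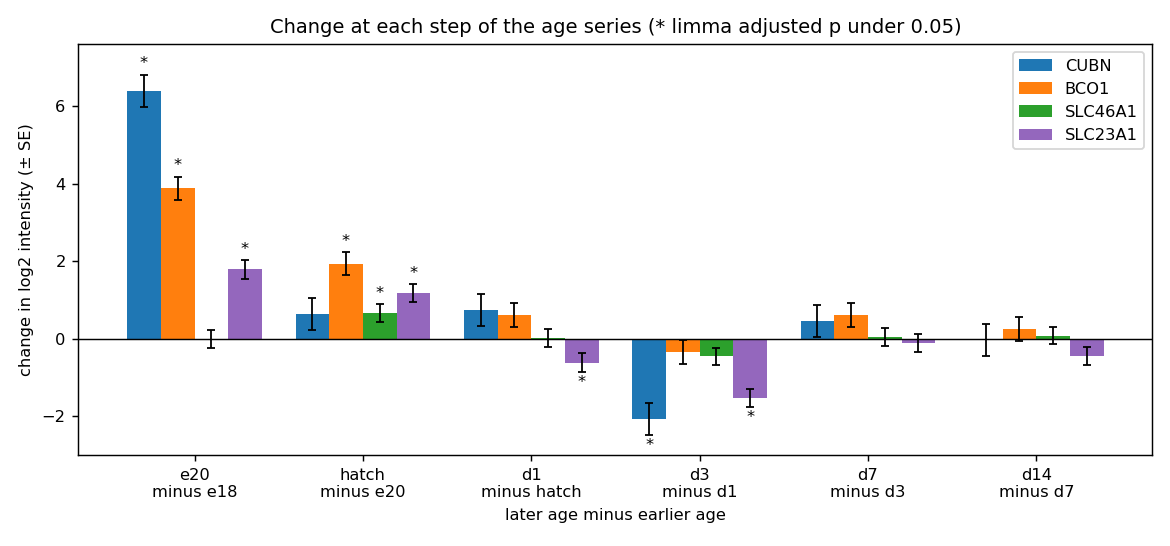
Change in log2 intensity (vertical axis, bars with ± SE) at each of the 6 steps between consecutive ages (horizontal axis) for the 4 tested members. Stars mark limma adjusted p under 0.05, which the text gives for each step. The CUBN bar from e18 to e20 starts from an e18 mean below background, so its height depends on that floor and the change is known only as at least 70.6-fold. The bars below 0 with a star are SLC23A1 from hatch to d1 and CUBN and SLC23A1 from d1 to d3.

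Over wider spans the same genes gave different answers by start point. As for the single steps, calls of CUBN and SLC23A1 carry no weight against the shares of all genes. Between e18 and d14 CUBN and BCO1 were higher, where 73.7% of genes were called and 33.2% were higher. Between e20 and d14 BCO1 was higher and SLC23A1 lower, with a change of −1.51 ± 0.23 (adjusted p = 3.88e-06), against 67.6% of genes called, 27.2% higher and 40.4% lower. The mean of d1 to d14 exceeded that of e18 and e20 by 3.27 ± 0.25 for CUBN, 4.63 ± 0.19 for BCO1 and 0.39 ± 0.14 for SLC46A1 (adjusted p = 1.26e-11, 5.31e-17 and 0.0129), against 79.4% of genes called and 34.1% higher. The mean of CUBN over d1 to d14 was 9.26, close to its e20 mean of 9.18. Its value of 3.27 thus depends on its e18 mean of 2.78, below background, and its true size is not known. For SLC23A1 the contrast of d1 to d14 with e18 and e20 was 0.16 ± 0.14 and was not called (limma adjusted p = 0.313). In the other pairs of ages, calls over all genes against e18 were 65.8% at hatch, 72.5% at d1, 71.9% at d3 and 72.7% at d7. Against e20 they were 55.8% at d1, 57.8% at d3 and 64% at d7, and against hatch 37.2% at d3, 47.4% at d7 and 54% at d14. Against d1 they were 35% at d7 and 46% at d14, and between d3 and d14 27%.

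The genes whose log2 values followed each member most closely over the 28 arrays were listed by Pearson correlation, among 8127 other tested genes that carry a proper name. These correlations describe courses dominated by age and are given without a test. For CUBN they were NR1I3, a nuclear receptor of xenobiotic response (0.978), ACADL, a mitochondrial acyl-CoA dehydrogenase (0.972), and ADA, adenosine deaminase (0.967). Over the 24 arrays without e18, NR1I3 again came first (0.858), then ADRA2A, an adrenergic receptor (0.851), and NFS1, a cysteine desulfurase (0.849). For BCO1 they were CLDN10, a claudin (0.981), PRR15 (0.980) and the glucose carrier SLC5A1 (0.979), and without e18 PRR15 (0.965), cytidine deaminase CDA (0.962) and TMEM243 (0.959). For SLC23A1 they were the glutathione transferase GSTA3 (0.904), LRFN5 (0.903) and NXNL2 (0.901), and without e18 RGN, a calcium-binding lactonase (0.948), NXNL2 (0.929) and PBLD (0.918). The values for SLC46A1 were lower, with GNPDA1, a deaminase of amino sugars (0.757), carboxypeptidase O, CPO (0.748), and glycine decarboxylase, GLDC (0.740), and without e18 the monoacylglycerol acyltransferase MOGAT2 (0.814), INPP5B (0.804) and OXSM (0.799).

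SLC52A3, a riboflavin carrier, rose by 2.03 ± 0.30 from e18 to e20 (adjusted p = 4.57e-06) and held 7.02 at d14. RFK, which phosphorylates riboflavin, rose by 1.56 ± 0.22 in the same step. SLC5A8, a monocarboxylate carrier that also takes nicotinate in mammals, had its highest mean at d3, 7.05 ± 0.44, and was 1.82 ± 0.42 higher at d14 than at e18. PANK3, a pantothenate kinase, rose by 1.81 ± 0.13 from e18 to d14, and NADK, which makes NADP, by 1.68 ± 0.17. Of 9 tested genes of other B vitamins 7 were higher and 0 lower at d14 than at e18, and 4 were higher and 1 lower than at e20. Over all genes tested 33.2% were higher and 40.5% lower than at e18, and 27.2% and 40.4% than at e20.

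Among genes of the fat-soluble vitamins VDR, the vitamin D receptor, rose by 1.91 ± 0.13 from e18 to d14, and VKORC1L1, an enzyme that recycles vitamin K, by 0.96 ± 0.16. GC, the vitamin D-binding protein of plasma, changed by −2.54 ± 0.37 and, like TTR, is also among the liver and yolk sac markers. CYP2R1, which hydroxylates vitamin D, was at least 1.87-fold lower at d14, where its mean was below background. Of 6 such genes tested 4 were higher and 2 lower at d14 than at e18, where the shares of all genes are those given for the B vitamins. Over all 7 vitamin lists without the members, 52 of 106 listed genes were tested, and 29 were higher and 16 lower at d14 than at e18, against 33.2% and 40.5% of all genes. From e20 to d14 the counts were 19 and 14, against 27.2% and 40.4%. The median change of these 52 was 0.50 from e18 and 0.05 from e20, and that of all genes −0.07 and −0.13.

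Of 15 tested transcription factors of the intestine 11 were higher and 2 lower at d14 than at e18, and 10 were higher and 4 lower at e20 than at e18. Over all genes these shares were 33.2% and 40.5% at d14, and 29.2% and 25% at e20. CDX2, which specifies intestinal identity, had means of 10.14 at e18 and 10.88 at d14. HNF4A, a nuclear receptor of enterocyte genes, rose from 8.36 at e18 to 9.59 at e20 (adjusted p = 3.69e-06). CDX1 rose from 6.85 to 8.98 in that step (adjusted p = 6.18e-12), and KLF5, a factor of crypt cells, fell by 1.16 (adjusted p = 8.48e-06). These 4 factors were picked from the list after their values were seen, and whether any of them acts on the members was not tested.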

How the data were processed

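The authors deposited linear intensity values for each probe set, made with GCRMA per the submitters' processing notes. No source used here gives its version or says if all arrays were run jointly. Low GCRMA values vary little, so changes near background are understated. Here log2 was taken, probe sets with 1 symbol in the platform annotation were kept, and each gene was represented by the probe set with the highest mean. All 8396 genes with log2 over 4 on at least 4 arrays were fitted with limma 3.58.1 in R 4.3.3 (1 mean per age, eBayes, 21 residual and 3.13 prior degrees of freedom). P-values were two-sided and adjusted by Benjamini and Hochberg over those genes, with 0.05 as threshold. The fit was run on simulated independent normal values with known changes added at d14. That run does not cover shared pools, lines or low GCRMA values. An age whose mean was at or below background gives a fold bound, against the higher of background and the measured value on each array. The number of arrays limits the precision.

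The arrays' median intensities ranged from 7.39 to 8.00, and correlations within an age between 0.978 and 0.994 over genes. No 2 arrays were identical, and replicate numbers follow the record order and pair nothing. Line and pool could not be fitted. Besides the members, text names 10 fixed partner genes (SLC5A6 is not named on the array). It also names the 4 of each vitamin list with the largest range among genes called by the F-test. The transcription factors named were picked outside this rule, after their values were seen. The neighbours are the 3 with the highest correlation. Members and lists were chosen with earlier results of these data known. Alternatives were other filters, normalizations, offset, spread models, probe set rules and leaving out arrays. No sequences were used here.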

Additional observations from a re-analysis of the deposited data

Results flagged for a closer look

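Of 42 sets of 4 arrays (6 genes at 7 ages) 2 held an array far from the other 3 by Dixon's test, and chance gives about 1 in 20. SLC19A3 at d14 had a lowest array at 3.44, with the others between 3.90 and 3.98. SLC23A1 at e20 had a highest array at 5.49, with the others between 4.99 and 5.06.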

How the results depend on the processing

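The number of members called kept within 1.5 times of its value in every comparison and alternative run, except from hatch to d1. There it was 1, and became 0 with no filter and with quantile normalization, 2 with array weights, and between 0 and 2 when single arrays were left out. The calls of CUBN from e18 to e20 and d1 to d3, and of BCO1 from e18 to e20 and e20 to hatch, held in every alternative that could give a value, as did those of SLC23A1 over the same steps and from d1 to d3. The rise of SLC46A1 from e20 to hatch was lost when its probe sets were averaged (0.60, adjusted p = 0.0611). No call changed sign. Over all genes, those called from d3 to d7 numbered 1130 and from 562 to 1354 with single arrays left out (562 without d7 array 3, 577 without d3 array 1, 654 without d7 array 4). Those from d7 to d14 numbered 72 and from 34 to 113 (34 and 43 without d7 arrays 2 and 1, 47 and 113 without d14 arrays 3 and 2). Leaving out the e18 arrays, with spread estimated from 24 arrays, was chosen after seeing the data. With 8 added to each intensity, the difference between SLC23A1 and SLC23A2 from d1 to d14 was −1.27 and not called (adjusted p = 0.0762), against −1.78 (adjusted p = 0.0381). No paired analysis was possible because the labels give no replicate numbers shared between ages. Signal at or close to background limits LRP2, SLC19A3, CUBN at e18, SLC23A1 at e18 and d14, and BCO1 on e18 array 1.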

Other observations

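At d3 the arrays that were low for CUBN were also low for DAB2. CUBN read 7.51, 9.60, 7.81 and 9.12 on arrays 1 to 4 of that age, and DAB2, the endocytic adaptor, 3.78, 5.12, 3.92 and 5.49. Arrays 1 and 3 were the lowest for both genes. They were also the lowest for SLC23A1 (3.68 and 4.16) and for BCO1, but not for SLC46A1 or SLC19A3. The pattern was thus not particular to CUBN and DAB2. For SLC46A1 the upper 2 arrays at d7 and at d14 were arrays 3 and 4, which were also the upper 2 for CUBN and for BCO1 at both ages. The labels assign no line or pool to these arrays, so whether the pairs differ in either was not tested.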
